A study of Mus musculus with 2 samples.

Results

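The Zfp zinc finger genes were taken as every site whose gene name in the authors' deposited table is Zfp followed by a digit. The rule found 119 sites on 84 genes, of 8987 sites on 4959 gene names in the whole list. The table comes from m6A immunoprecipitation sequencing (MeRIP-seq) of pancreatic islets from 2-week-old 129sv mice. The assay enriches RNA fragments that carry N6-methyladenosine (m6A), a common mark inside messenger RNAs, with an antibody (the m6A IP), and sets them against the starting RNA (the input). The data hold 1 m6A IP library and 1 input library of the same tissue, strain and age. The labels give no genotype or treatment and do not say whether animals were pooled. With 1 library per group there is no replicate error, so every difference below describes this site list and has no test.

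Zinc finger proteins of the Zfp type mostly carry tandem fingers in which paired cysteines and histidines hold a zinc ion, and the fingers read DNA. A large branch also carries a KRAB domain, which recruits the corepressor TRIM28 and silences transposable elements and genes, and these genes multiplied in clusters of close copies. In many of them the whole finger array is encoded by 1 long final exon. The name also covers unrelated proteins, such as the CCCH-type Zfp36 family, which binds AU-rich elements in mRNA and speeds its decay. m6A in mRNA is known to lie mainly in long internal exons and around stop codons, and to shorten the life of many transcripts.

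Several Zfp sites began at or near an annotated transcription start, and these are the stretches where a sequence can be set beside a site. A gene can have several annotated starts, and the start used is not always its outermost one. The following lines give 60 bases across the transcription start, 30 before it and 30 after it, from RefSeq (GRCm38.p6), 5′ to 3′ on the gene's strand. Capitals mark bases inside the site and lower case marks bases outside it. Shown are the 5 members with the highest fold among those whose site covered these first 30 transcribed bases, and Zfp367, the only one of them with GGAC, the core of the m6A consensus, inside the 30 bases.
Zfp622: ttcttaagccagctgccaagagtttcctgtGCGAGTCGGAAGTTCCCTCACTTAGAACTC
Zfp91: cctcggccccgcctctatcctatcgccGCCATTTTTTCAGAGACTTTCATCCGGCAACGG
Zfp275: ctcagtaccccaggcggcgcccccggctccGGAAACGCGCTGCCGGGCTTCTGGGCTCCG
Zfp326: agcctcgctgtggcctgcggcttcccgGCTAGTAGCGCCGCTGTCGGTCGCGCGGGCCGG
Zfp292: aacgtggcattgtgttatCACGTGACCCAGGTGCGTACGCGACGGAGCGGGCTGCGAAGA
Zfp367: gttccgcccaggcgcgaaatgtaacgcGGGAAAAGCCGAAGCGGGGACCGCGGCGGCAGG
The windows lie at chr15:25984336-25984395 (plus strand, Zfp622), chr19:12796094-12796153 (minus, Zfp91), chrX:73342590-73342649 (plus, Zfp275), chr5:105876538-105876597 (plus, Zfp326), chr4:34882919-34882978 (minus, Zfp292) and chr13:64153170-64153229 (minus, Zfp367). In Zfp622 and Zfp275 the site and the transcript began on the same base. In Zfp91, Zfp326 and Zfp367 the site began 3 bases before the annotated start, and in Zfp292 it began 12 bases before it. In Zfp275, Zfp326 and Zfp292 the site began 27, 9 and 23 bases inside the gene span. The starts shown for them are therefore not the outermost ones, and some of their lower-case bases lie within the gene.

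Each site has a fold enrichment, a linear ratio of the m6A IP over the background that the peak caller expected from the input. It also has a score, which is 10 times the sign-reversed log10 of the p that the caller gave, and the caller's false discovery rate (FDR) in percent. All 3 are the authors' own deposited values and describe sites within this list. Coordinates are GRCm38, counted from 1. All 119 Zfp sites overlapped the span of their gene. No exon annotation was used, so sites are placed along the gene span and not in exons, introns or UTRs.

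The strongest Zfp site lay on Zfp704, a gene first described as glucocorticoid-induced, with a fold of 50.73. It covered 816 bases at chr3:9609270-9610085, at the outer end of the gene, and had a score of 3100 and an FDR of 27.16%. No site in the whole list had an FDR below 27.16%, and sites on other genes reached the same value. Its fold was above the strongest fold of 99.5% of all genes with a site. The second Zfp704 site, at chr3:9452264-9452364, had a fold of 5.61. Zfp704 was the member with the widest spread between its own sites, 9.04 times.

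Zfp791 had a fold of 24.39 on a site of 61 bases (chr8:85112210-85112270). Zfp316 had a fold of 23.47 at chr5:143264293-143264681 and 8.92 at a longer site nearer its 3′ end. Zfp622, whose human counterpart takes part in the maturation of the large ribosomal subunit, had a fold of 22.19 on 818 bases from its first base onward (chr15:25984366-25985183). A second Zfp622 site towards the 3′ end had a fold of 5.24. Zfp513, whose human counterpart is tied to retinal disease, had a fold of 20.41 on 1167 bases that ended on the last base of the gene (chr5:31198981-31200147). These 5 genes were the only members with a fold of at least 20.

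Another 11 members had a strongest fold between 10 and 20. Zfp91, whose human counterpart acts as an atypical ubiquitin ligase, had a fold of 17.08 at its start (chr19:12794984-12796126) and 7.70 within the gene (chr19:12778893-12779099). Zfp106, an RNA-binding protein needed by motor neurons and muscle, reached 15.09 at chr2:120539295-120539860. Zfp236, whose human counterpart was described as a glucose-responsive gene in kidney cells, reached 15.00 at chr18:82656949-82657177. Zfp275 had 14.16 at an annotated start. Zfp618, whose human counterpart binds 5-hydroxymethylcytosine in DNA with UHRF2, reached 13.19 at chr4:63079840-63080096. Zfp365, a partner of the neuronal scaffold Disc1, had 12.80 at chr10:67909201-67909959. Zfp326, whose human counterpart is a subunit of the complex that links RNA polymerase II to splicing, and Zfp771 both reached 10.89. Zfp319 (10.59), Zfp13 (10.47) and Zfp219 (10.44), a cofactor of Sox9 in cartilage, completed them. Zfp219 was the member just above a fold of 10, and Zfp777 (9.51) the member just below it.

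The caller's own FDR was below 100% for 23 Zfp sites (19.3%), against 25.8% of sites on all other genes. It was below 50% for 3 of the 119 Zfp sites, against 434 of 8868 sites on all other genes. The 3 Zfp sites were the strong Zfp704 site, a Zfp652 site (fold 8.48, score 1771.57, FDR 42%) and the weaker Zfp91 site (score 1294.42, FDR 49.22%). Human ZNF652 is known as a transcriptional repressor that works with the corepressor CBFA2T3. The order by score differs from the order by fold: the weaker Zfp91 site, with a fold of 7.70, had a higher score than the stronger one, at 1208.1. The median score was 116 over Zfp sites and 132 over sites on all other genes.

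**Figure D1:**
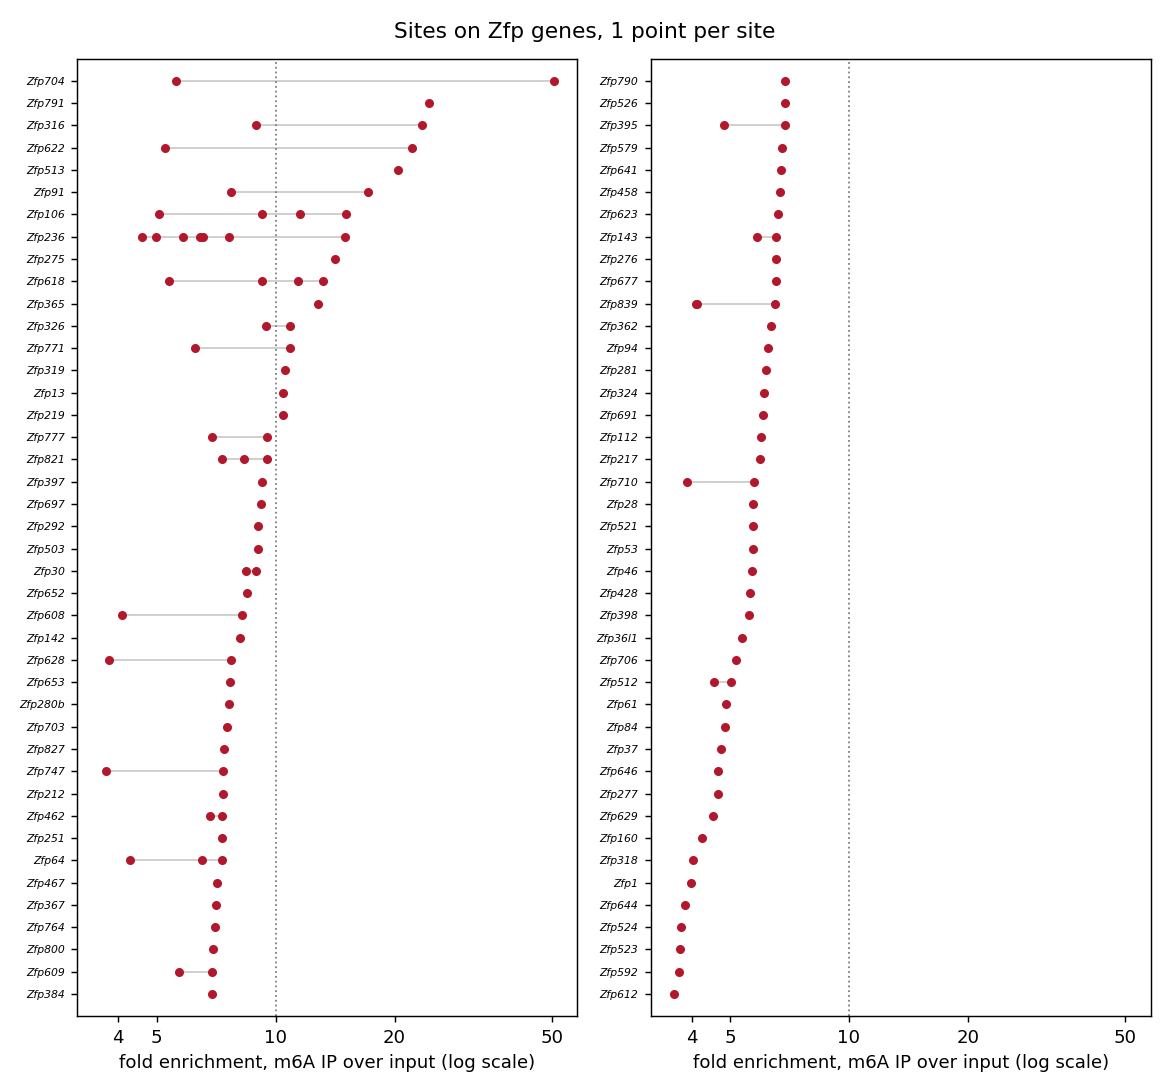
Fold enrichment of m6A IP over input (x axis, log scale) for each of the 119 sites, with 1 row per Zfp gene ordered by its strongest site and grey lines joining the sites of a gene. The dotted line marks a fold of 10. Of the 84 genes, 16 reach it, and Zfp704 at 50.73 stands apart from the rest.

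Most Zfp genes had a single site. A single site was found on 61 of 84 members (72.6%), against 59.6% of all other genes with a site, and the mean was 1.42 sites per Zfp gene against 1.82. There were 17 members with 2 sites, 3 with 3 sites, 2 with 4 sites and 1 with 7 sites. Zfp236 carried the 7, with folds of 7.64, 6.54, 5.82, 4.60, 15.00, 6.43 and 4.98 in order of rising coordinate. All except the strongest lay below a fold of 8.

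Zfp106 and Zfp618 had 4 sites each. The Zfp106 folds were 11.56 near the 5′ end of the gene, then 9.23, 15.09 and 5.06 towards the 3′ end. The Zfp618 folds were 11.38 near the 5′ end, then 13.19, 5.38 and 9.23. In both genes the site at the 5′ end was the second strongest. With 3 sites each there were Zfp64 (folds of 6.50, 7.30 and 4.29 from 5′ to 3′), Zfp821 (8.33, 7.30 and 9.49) and Zfp839 (6.50, 4.13 and 4.11).

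Zfp sites had lower folds than sites on other genes. The median fold was 6.73 (quartiles 5.37 and 8.46, range 3.60 to 50.73) over the 119 Zfp sites, against 7.14 (quartiles 5.47 and 9.92) over the 8868 other sites. A fold of at least 10 was reached by 18 Zfp sites (15.1%), where 24.6% of all sites in the list reached it. Taking the strongest site of each gene, the median was 6.90 over Zfp genes and 8.13 over all other genes with a site. Members with a single site had a median of 6.54 against 6.97 for other such genes, and members with more sites had 8.90 against 10.31.

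By bands of the strongest fold, Zfp genes were fewer between 10 and 20 and more numerous below 10. A strongest fold between 10 and 20 was found on 13.1% of Zfp genes, against 27.5% of other genes, while at least 20 was found on 5.95% against 6.77%. Between 5 and 10 lay 54 Zfp genes (64.3%), against 54.8% of other genes. Below 5 lay 14 (16.7%), against 10.9%, the lowest being Zfp612 (3.60), Zfp592 (3.71), Zfp523 (3.74) and Zfp524 (3.76).

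The transcription factor family Zbtb, which joins the same kind of fingers to a BTB domain, had median folds close to those of Zfp. Its 18 sites on 14 genes had a median fold of 6.14, and its genes a median strongest fold of 6.78. A fold of at least 10 was reached by 4 of the 18 Zbtb sites (22.2%), nearer to the share of all sites (24.6%) than to that of Zfp sites (15.1%). The Zc3h genes, whose CCCH fingers bind RNA, stood higher, with a median fold of 8.07 over 32 sites and a median strongest fold of 11.66 over 10 genes. Single sites were also common in Zbtb, on 11 of 14 genes (78.6%), with a mean of 1.29 sites per gene. In Zc3h 3 of 10 genes had a single site, and the mean was 3.20. With 14 and 10 genes these medians and shares rest on few values.

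Zfp sites were long. Their median length was 603 bases (quartiles 216 and 1491), against 210 bases (quartiles 138 and 439) for all other sites. At least 1000 bases were covered by 45 Zfp sites (37.8%), against 852 sites on other genes (9.61%). Zbtb sites were long as well, with a median of 1110 bases, and Zc3h sites were not, with a median of 199 bases. The longest Zfp sites lay on Zfp462 (5594 bases, fold 7.33, chr4:55008256-55013849), Zfp629 (5532 bases, 4.52, chr7:127607031-127612562) and Zfp646 (5349 bases, 4.67, chr7:127878570-127883918). Zfp46 (3972 bases, fold 5.67), Zfp281 (3679 bases, 6.15) and Zfp319 (3677 bases, 10.59) followed. Zfp462 is known to hold heterochromatin with the methyltransferases G9a and GLP, and Zfp281 to restrain pluripotency genes such as Nanog. The shortest sites were those on Zfp458 (38 bases) and Zfp618 (44 bases).

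Folds were also compared within classes of length, since Zfp sites were longer than others. Among sites of at least 1000 bases the median fold was 6.15 on Zfp genes and 6.33 on other genes. From 200 to under 1000 bases it was 6.90 against 7.69, and below 200 bases 6.68 against 6.84. The share reaching a fold of 10 was lower on Zfp genes in each class, at 11.1% against 17.8%, 17.0% against 30.5% and 18.5% against 20.8%. Across the 119 Zfp sites, which include sites of the same gene and share both libraries, Spearman's rho of fold with length was -0.09. Across all 8987 sites it was 0.04.

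**Figure D2:**
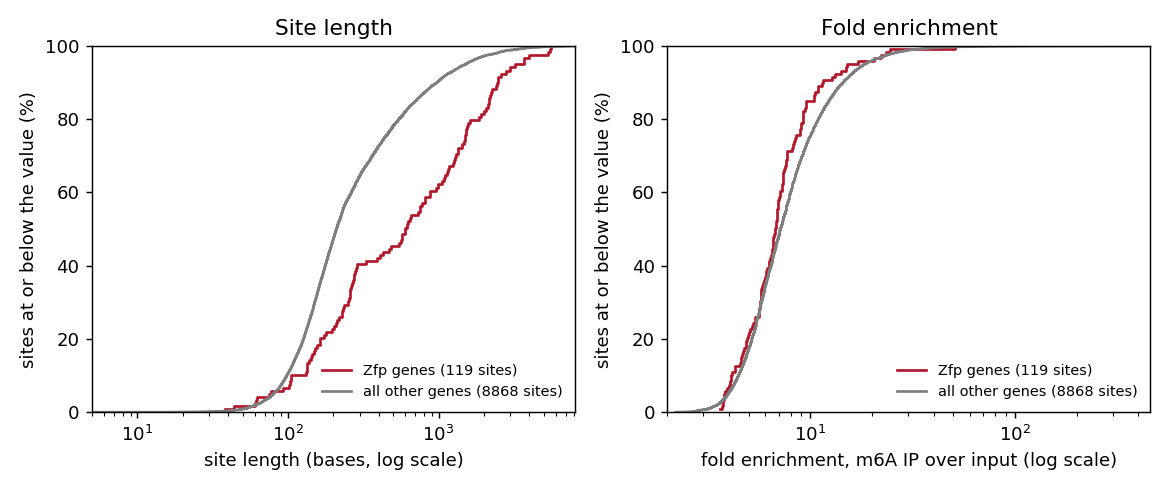
Share of sites (y axis, percent) at or below a given length in bases (left, log scale) or a given fold of m6A IP over input (right, log scale), for 119 sites on Zfp genes and 8868 on all other genes. The length curves lie well apart, with medians of 603 and 210 bases, and the fold curves lie close together, with medians of 6.73 and 7.14.

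The position of a site along its gene could be read for 91 of the 119 Zfp sites, those of 67 genes with a strand in the tables used. The remaining 28 sites lay on 17 genes and were not placed. Measured from the nearer edge of the site, which a long site brings closer to the end, at most 500 bases to the 3′ end of the gene were found for 19 Zfp sites (20.9%), against 6.95% of sites on all other genes. Of 13 placed Zbtb sites, 4 (30.8%) lay as close to it. By its centre, a site lay in the last of 10 equal parts of the gene span for 13.2% of Zfp sites, against 12.7% of other sites. Near the 5′ end, also by the edge, lay 20 Zfp sites (22.0%), against 21.5% of other sites. With only the strongest site of each gene the share near the 5′ end was 22.4% for Zfp genes against 33.2% for other genes, and with a score of at least 100 it was 17.6% of Zfp sites against 23.3% of other sites. The centre of a Zfp site lay at a median of 0.60 of the gene span, against 0.50 for other sites, but this order turned to 0.43 against 0.47 when only sites with a fold of at least 5 were kept.

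**Figure D3:**
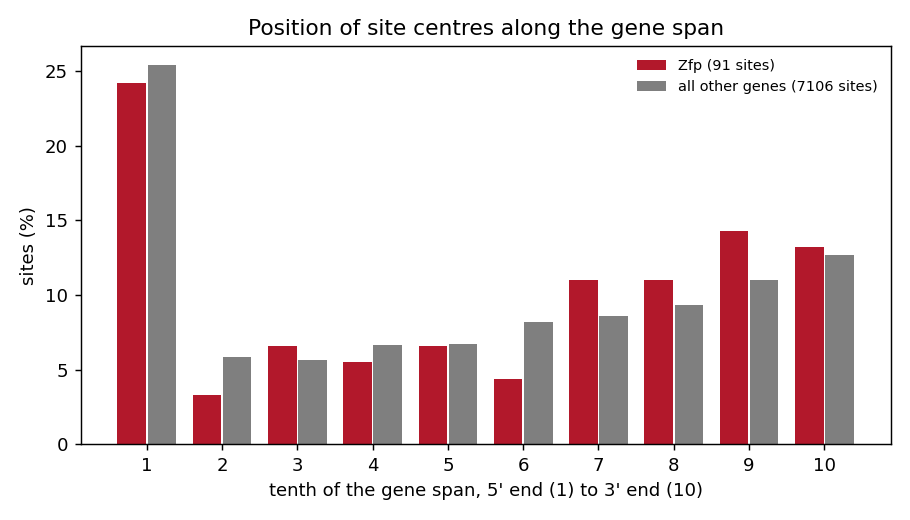
Share of sites (y axis, percent) whose centre falls in each of 10 equal parts of the gene span, from the 5′ end (1) to the 3′ end (10), for 91 Zfp sites and 7106 sites on other genes. Both sets peak in part 1, with 24.2% of Zfp sites and 25.4% of other sites, and part 10 holds 13.2% of Zfp sites and 12.7% of the others.

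Sites at opposite ends of Zfp genes differed in length. The 20 sites near the 5′ end had a median length of 268 bases and a median fold of 7.49, and 6 of the 20 reached a fold of 10, against 40.1% of such sites on other genes. The 19 near the 3′ end had a median length of 1521 bases and a median fold of 6.25, and 3 (15.8%) reached 10, against 19.4% on other genes. The 52 sites between had a median of 557 bases and a fold of 6.82. On all other genes the sites near the 5′ end had a median of 299 bases and a fold of 8.69, those near the 3′ end 857 bases and 6.85 (over 439 sites, leaving out 55 that were also near the 5′ end), and those between 176 bases and 6.83. The median length of Zfp sites was above that of other sites near the 3′ end and within the gene, and below it near the 5′ end.

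**Figure D4:**
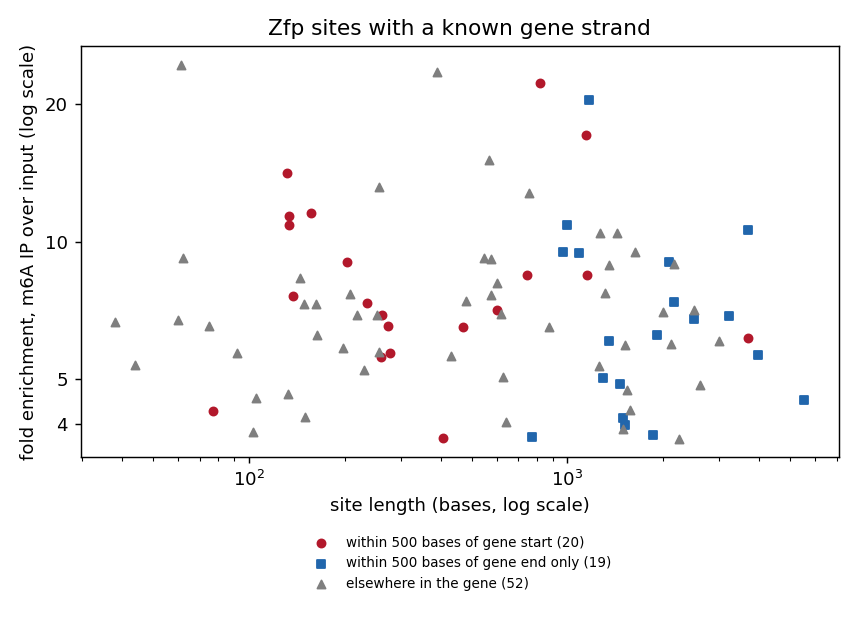
Length in bases (x axis, log scale) and fold of m6A IP over input (y axis, log scale) of the 91 Zfp sites on genes with a known strand, marked by where on the gene they lie. The 19 sites near the gene end (squares) sit to the right, with a median of 1521 bases, and most of the 20 near the gene start (circles) to the left, with a median of 268.

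Some members had a site towards each end. Zfp326 had a fold of 10.89 on 134 bases near its start and 9.45 on 1087 bases ending 64 bases before its end. Zfp30, a KRAB factor known in mice as a regulator of the neutrophil chemokine Cxcl1, had 8.44 on 748 bases near its start and 8.90 on 1347 bases ending 997 bases before its end. Zfp747 had 3.73 on 408 bases from its first base and 7.37 on 2162 bases to its last base. The 5′ site was the shorter one in these 3 genes, and of the 3 the fold was higher there only in Zfp326. Zfp622 had the opposite order of length, with 818 bases at its start and 229 bases towards its end. These genes were picked after their values were seen and do not stand for all members with several sites. Elsewhere the order of fold went both ways: the site nearer the 5′ end had the higher fold in Zfp710 and the lower in Zfp771.

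Exact coincidence with an annotated transcription start was seen at 10 of the 91 placed Zfp sites (11.0%), against 906 of 7106 other sites (12.7%). Within 10 bases of a start, but not on it, lay another 5 Zfp sites (5.49%), against 2.27% of other sites. The 10 exact ones had folds from 3.73 to 22.19, with a median of 6.72, against a median of 8.82 over the 906. The last base of the gene was the last base of 6 Zfp sites (6.59%), against 2.88% of other sites. The labels do not say how peaks were cut to transcripts, and the part of that step in these coincidences was not tested. Its part in the lengths of sites and in the number of sites per gene was not tested either.

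GGAC, the core of the m6A consensus, was sought in the 50 transcribed bases of each start window. On the transcribed strand it occurred in 5 of the 17 Zfp windows whose first 30 bases lay in a site (29.4%), in 17 of 86 windows of all placed members (19.8%) and in 18.9% of all 32851 windows in the table. On either strand the shares were 41.2%, 43.0% and 33.3%. The longer GGACT, which contains GGAC, occurred on the transcribed strand in 1 of the 17 windows (5.88%), in 5 of the 86 (5.81%) and in 5.76% of all windows, and on either strand in 11.8%, 12.8% and 10.4%. These windows cover only the first bases of the sites.

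Members were also grouped by known role, in short lists picked by hand with earlier results of these data known. The share of a list with a site may therefore reflect how the list was chosen. Beside the lists, 22.2% of all protein-coding genes had a site, and 21.2% of annotated Zfp genes had one under that name. Of 10 genes tied to RNA or translation, 4 had a site under the name used here, with a median strongest fold of 12.99: Zfp622 (22.19), Zfp106 (15.09), Zfp326 (10.89) and the small protein Zfp706 (5.17). Zfp638, an RNA-binding splicing factor known for promoting adipocyte differentiation, is listed under its older name Zfml with a fold of 8.69 and so was not counted. Zfp207, Zfp598, a sensor of collided ribosomes, and Zfp830 were among those without a site in the list.

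The CCCH decay factors had a site on 1 of 3, too few to set against the share of all genes. Zfp36l1 had a fold of 5.36 on 1255 bases at chr12:80109294-80110548, and Zfp36 and Zfp36l2 had none.

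Large developmental factors had sites on 11 of 16 genes (68.8%), against 22.2% of all protein-coding genes, and a median strongest fold of 7.33. As the list was written with earlier results known, its share is no test of this class of genes. Zfp292 (9.02), mutated in human neurodevelopmental disorders, Zfp503 (9.01), a factor of the developing striatum, and Zfp608 (8.24) were the highest. Zfp703 (7.55), whose human counterpart is amplified in luminal breast cancer, Zfp827 (7.41), Zfp462 (7.33) and Zfp800 (6.96), whose human counterpart restrains enteroendocrine differentiation, followed. Zfp609 (6.92), which works with cohesin loading and Integrator in neural progenitors, Zfp521 (5.72), an antagonist of the B cell and fat cell factor Ebf1, Zfp318 (4.03), which allows IgD expression in B cells, and Zfp644 (3.84), a partner of G9a and GLP, were lower. Zfp608 and its paralog Zfp609 each had 2 sites, with folds of 8.24 and 6.92 towards one end of the gene and 4.09 and 5.70 on longer sites of 2455 and 2405 bases towards the other. Zfp423, Zfp407, Zfp536, Zfp516 and Zfp518a had no site in the list.

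Sequence-specific regulators, most of them without a KRAB domain, had sites on 8 of 14 genes (57.1%), against the same 22.2%, with a median of 6.72. Zfp91 (17.08) and Zfp219 (10.44) led. Zfp64 (7.30), known in humans to sustain the MLL gene in leukaemia, Zfp384 (6.90), a regulator of bone matrix genes, Zfp143 (6.54), an activator of snRNA and many mRNA promoters, Zfp276 (6.54), Zfp281 (6.15) and Zfp217 (5.94), in humans a breast cancer oncogene, followed. Zfp148, Zfp335 and Zfp410 were among those without one. Of 10 KRAB factors, chosen mainly for roles in silencing or imprinting, 1 had a site, Zfp30 (8.90). Zfp57 and Zfp445, which keep imprints, Zfp809, which silences retroviral elements, and Zfp568, which silences a placental Igf2 promoter, had none in the list. Fewer sites on a list of genes and less of its RNA in the islet cannot be told apart here, because no input level per gene was used.

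The annotation holds 397 protein-coding genes with a Zfp name. Of these 84 (21.2%) had a site under that name, where 22.2% of all 21900 protein-coding genes had one. Counting also Zfml and Gm13139, older names of Zfp638 and Zfp991, there were 86 (21.7%), and these are used below for spans, chromosomes and the share inside runs. The 22.2% also counts genes listed under older names, so 21.7% is the like value. The 311 genes without a site had a median genomic span of 17440 bases, against 19836 bases for the 86 with one. With sites of an FDR below 100% alone, 4.53% of Zfp genes had a site under that name, against 7.34% of other protein-coding genes.

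Zfp genes with a site were unevenly spread over the genome. Chromosome 7 held the most, with 21 of 93 (22.6%), against 17.2% of all protein-coding genes there. On chromosome 13 only 2 of 37 (5.41%) had a site, on chromosome 11 1 of 21 (4.76%) and on chromosome 17 6 of 46 (13.0%), where 23.3%, 24.6% and 20.3% of all protein-coding genes had one. On chromosome 6, 7 of 17 (41.2%) had a site, and on chromosome 15, 5 of 11 (45.5%), against 22.0% and 25.8% of all genes.

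**Figure D5:**
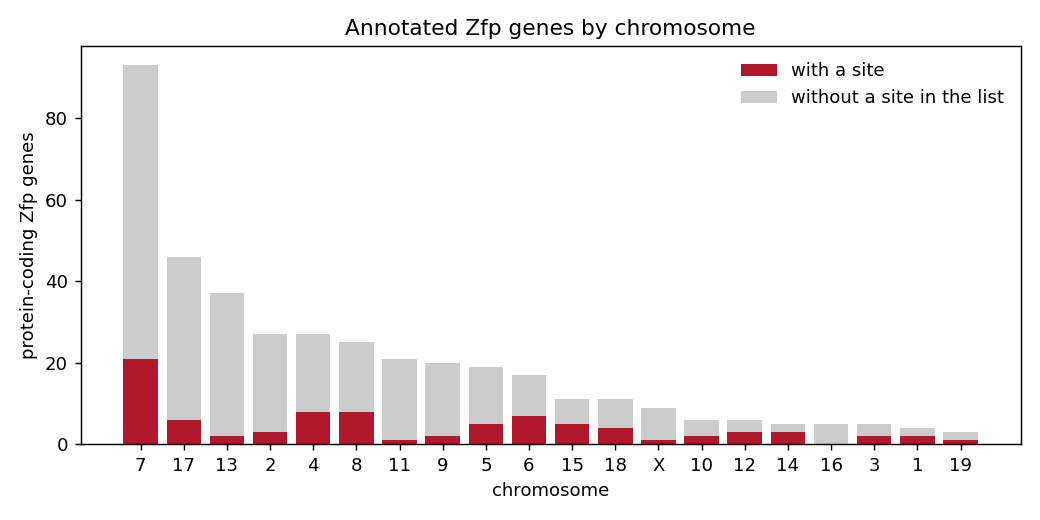
Number of protein-coding Zfp genes (y axis) on each chromosome (x axis, ordered by number), split into those with a site and those without a site in the list. Chromosome 7 holds 21 of 93 with a site, and chromosome 13 holds 2 of 37.

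The share of Zfp genes with a site was lower inside gene clusters than outside them. Runs of at least 3 Zfp genes, each within 100 kb of the next, numbered 30 and held 182 genes, of which 24 (13.2%) had a site. Of the 215 Zfp genes outside runs, 62 (28.8%) had one. Protein-coding genes of other names that lie within the runs had a site in 4 of 29 cases (13.8%). In 17 of the 30 runs no Zfp gene had a site. The distance was chosen with these data in view.

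The largest run, 23 genes on chromosome 13, had a single member with a site, Zfp458 (fold 6.68, the 38-base site). A run of 15 on chromosome 7 had 3, Zfp84 (4.86), Zfp30 (8.90) and Zfp790 (6.90). A run of 10 on the same chromosome had 3, Zfp112 (5.99), Zfp61 (4.89) and Zfp94 (6.25). Runs of 8 on chromosomes 17 and 7 had none. Some shorter runs held more, 3 of 6 genes in a run on chromosome 7 (Zfp628, Zfp579 and Zfp524), and 3 of 7 on chromosome 6 (Zfp398, Zfp212 and Zfp777).

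Among genes that had a site, median folds inside and outside runs were close. The 23 members inside runs had a median strongest fold of 6.78 and a highest of 23.47, and 2 (8.70%) reached 10. The 61 outside had a median of 6.92 and a highest of 50.73, and 14 (23.0%) reached 10. Of all genes with a site, 34.1% reached it. Clustered Zfp genes include close copies, and reads that fit several copies cannot be assigned with certainty. Whether the sites inside runs rest on such reads was not tested.

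In the annotation columns of the deposited table, 61 of 84 members (72.6%) carried a term for binding DNA or nucleic acid and 59 (70.2%) one for regulation of transcription. Their median strongest folds were both 6.90. Poly(A) RNA binding was given for 5 members, Zfp106, Zfp326, Zfp36l1, Zfp579 and Zfp622, with a median of 10.89. No specific molecular function was given for 13 (15.5%), with a median of 6.50. None of the 84 had a KEGG pathway, against 35.5% of all other genes with a site.

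Of 15 islet endocrine markers, 6 had a site: Chga, Chgb, Scg5, Mafa, Neurod1 and Mnx1. Ins1, Ins2, Gcg, Sst, Ppy, Iapp, Pdx1, Nkx6-1 and Nkx2-2 had none in the list. Among all protein-coding genes 22.2% had a site. Sites also lay on 4 of 5 endothelial, 4 of 6 duct, 2 of 4 fibroblast, 1 of 7 acinar and 0 of 4 leukocyte markers. These counts do not identify the tissue, and the cells from which the Zfp transcripts came were not tested.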

How the data were processed

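The series holds 1 m6A IP and 1 input library from islets. Per the labels' protocols, the authors called sites with MACS and assigned them to transcripts with scripts of their own. Per the submitters' processing notes, reads were trimmed with cutadapt 1.9.3 and aligned with HISAT2 2.0.4. The labels name both a human build and mm10. Of 8942 sites matched to a GRCm38.p6 gene, 8924 overlapped its span, so coordinates are given as GRCm38. The deposited fold is a linear ratio of IP over input background. The authors' score multiplies the sign-reversed log10 of each p by 10. The deposited FDR was read as a percent. The authors' values were not recomputed. Length is end minus start, in bases, in the deposited table. Depth is unknown, since no counts were used.

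Names were matched by gene identifier, then symbol, then synonym. Strand came from the RefSeq start table. Position along the gene was taken from the site centre, and distance to a gene end from the nearer edge of the site. The calculation was tested on simulated data. Medians and shares were computed with pandas 2.3.3. Members named are the 12 with the largest strongest fold, the 8 with the most sites, the 6 longest sites, those of the role lists and those next to a fold of 10; others were named after their values were seen. The members and lists were chosen with earlier results of these data known. Alternatives were limits on fold, score and FDR, the median site per gene, merged intervals and a wider name rule.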

Additional observations from a re-analysis of the deposited data

How the results depend on the processing

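The shares of annotated Zfp genes in this paragraph, except those for runs, count only sites under a Zfp name. They leave out Zfml (fold 8.69) and Gm13139 (10.07), so they are somewhat low beside other genes. With a fold of at least 5, 17.6% of annotated Zfp genes kept a site (other genes 19.8%) and the median site fold was 7.21 (7.90). With a score of at least 100 there were 69 sites on 54 genes (13.6% of annotated, other genes 15.4%), with a median site fold of 7.66 (8.72), a median strongest fold of 7.54 (9.78) and 26.1% of sites reaching a fold of 10 (38.8%). An FDR below 100% left 23 sites on 18 genes (4.53%, other genes 7.34%), with medians of 9.51 and 10.53 (12.17 and 13.25), 47.8% reaching a fold of 10 (66.0%), a median length of 969 bases (255) and 47.8% of at least 1000 bases (12.2%). These limits keep fewer sites by construction. The share of Zfp genes with a site, counted this way, was below that of other genes in 3 of 3 alternatives. Zfp folds stayed below those of other genes in 3 of 3 alternatives for the site median and 4 of 4 for the strongest fold, and lengths above them in 4 of 4. The near-3′ share was higher in 5 of 5, and the near-5′ share in 2 of 5. All of these measured from the nearer edge, which a long site brings closer to the end, so they do not separate position from length. By site centre, the last of 10 parts of the gene span held 13.2% of Zfp sites and 12.7% of other sites. The median position kept its order in 2 of 3. Inside runs of Zfp genes the share with a site was 12.5% (50 kb) and 13.7% (200 kb), against 27.8% and 29.5% outside. The alternatives for length, gene ends and runs were chosen after seeing the data. Merging overlapping intervals left 119 sites, since none overlapped. A comparison of genes with and without a KRAB domain was not run, as no protein sequences were used. No paired analysis was possible because each group has 1 library. Depth is unknown, so no fold carries an error.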
